A study of Mus musculus with 176 samples.

Results

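Ccr7, S1pr1, Klf2, Klf3, Tcf7 and Lef1 were followed here, 6 of the 53546 gene names in the count table, because they are known as genes of naive and recirculating T cells. Their reads were compared cell by cell between P6+ and P6- cells. Of 176 cells sorted, 161 passed the quality limits, 32 of them P6+ (all that were sorted) and the rest P6-. P6+ cells were also compared among themselves by the reads of the T cell receptor segment Trbv13-2. The cells came from 1 female C57BL/6J mouse, bought at 7 weeks of age with no transgene or deletion stated. It was immunized with P6, a peptide of apolipoprotein B, in complete Freund's adjuvant and 2 weeks later in incomplete adjuvant. The draining lymph nodes were taken 2 weeks after that. CD4 T cells were gated by antibody as antigen-experienced, which included high CD44, and sorted singly into wells. P6+ cells bound the P6:I-Ab tetramer, which is P6 on the MHC class II molecule of this strain, and P6- cells did not. Full-length cDNA of each cell was made and sequenced by Smart-Seq2. Every group was thus 1 sample of cells from 1 immunized animal, so values are given without a test.

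Naive T cells patrol lymph nodes. CCR7 is the chemokine receptor that brings them in through high endothelial venules and holds them in the T cell zone, and S1PR1 is the sphingosine-1-phosphate receptor by which they leave again. KLF2 is a zinc finger factor that activates S1pr1. KLF3 belongs to the same family and is known mainly as a repressor. TCF1, the product of Tcf7, and LEF1 are related HMG-box factors that partner with beta-catenin. They are high in naive and memory T cells, are kept in follicular helper cells and fall in terminal effectors. T cell activation is known to lower most of these genes.

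In the P6+ cells the set did not move as a block. Pooled Lef1 was at 11.7 cpm (counts per 1000000, the reads of a gene summed over a group and scaled to that total) against 270 cpm in P6- cells, and no P6+ cell was above 129.6 cpm. The median cell was near 0 in both groups (0 and 0.556 cpm), so the pooled difference came from the minority of P6- cells with high Lef1. Ccr7 was present in cells with 10 or more Trbv13-2 reads and in cells with fewer. Tcf7 was under 10 reads in every P6+ cell with 10 or more reads of Trbv13-2, the V segment of the main expanded clone. It was strong in 7 of the 16 P6+ cells with fewer. Of these 16, 5 had no Trbv segment at 10 reads, so which one they carried was not read. S1pr1, Klf2 and Klf3 lay between, with most of their P6+ reads in the cells with fewer Trbv13-2 reads.

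The positions below are of GRCm38, the build the authors used, from the GENCODE annotation. Ccr7 (ENSMUSG00000037944) lies at chr11:99144196-99155077 on the minus strand, and Tcf7 (ENSMUSG00000000782) on the same chromosome and strand at chr11:52252371-52283014. S1pr1 (ENSMUSG00000045092) lies at chr3:115710433-115715072 on the minus strand and Lef1 (ENSMUSG00000027985) at chr3:131110471-131224356 on the plus strand. Klf2 (ENSMUSG00000055148) lies at chr8:72319033-72321656 and Klf3 (ENSMUSG00000029178) at chr5:64803388-64832901, both on the plus strand. Trbv13-2 (ENSMUSG00000076469) lies at chr6:41121396-41121832. Reads were counted over the exons of each gene, and the table gave each member 1 row.

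Promoter windows were listed in RefSeq (GRCm38.p6) for 4 of the 6 genes, with 8 start sites in all. The letters of the GC box to which SP and KLF factors bind, GGGCGG on either strand, were searched in the 250 bases before each start. They occurred in 32.7% of all 32851 listed windows. Stretches from 250 to 150 bases before the first listed start are shown for Klf2 and Klf3, the pair of KLF genes, and for Lef1 as the gene with the lowest pooled log2 ratio, 5′ to 3′ on the plus strand with GC boxes in capitals.
Klf2, chr8:72318812-72318912: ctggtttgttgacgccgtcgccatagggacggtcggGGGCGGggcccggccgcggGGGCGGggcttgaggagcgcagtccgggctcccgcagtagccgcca
Klf3, chr5:64803271-64803371: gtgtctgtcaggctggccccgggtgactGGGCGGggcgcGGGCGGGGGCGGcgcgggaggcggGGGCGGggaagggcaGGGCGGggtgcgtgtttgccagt
Lef1, chr3:131110047-131110147: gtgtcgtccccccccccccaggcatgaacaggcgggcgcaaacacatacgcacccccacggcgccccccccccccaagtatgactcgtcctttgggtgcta
The Klf2 stretch held 2 GC boxes, the Klf3 stretch 5 and the Lef1 stretch 0, and their GC contents were 76.2%, 80.2% and 68.3% against a median of 50.5% over all windows. A stretch of this length and place held 2 or more GC boxes in 2.38% of windows and 5 or more in 0.00609%. Neither GTAAACA, a core letter run of FOXO sites, nor CTTTGAT, one of TCF and LEF sites, occurred in the 250 bases before any of the 8 starts (3.17% and 3.21% of all windows held them, on either strand). Over the 250 bases, GC boxes occurred in 7 of the 8 windows of these genes, among them 3 of the 4 of Lef1, whose stretch above has none. The first 2 windows of Lef1 overlap and their box is the same one, so these windows are not separate cases. No match says only that these letters were not in these windows.

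Depth was of the same order in the groups compared. The total of a P6+ cell ran from 956280 to 3332191 reads (median 1731608) and that of a passing P6- cell from 522188 to 3401372 (median 1500457). Of the P6- cells left out, 7 had fewer than 500000 reads and 8 had 10% or more mitochondrial reads. P6+ cells had a median of 4396 genes with reads, against 3432 in P6- cells. All P6+ cells were on plate 6, which belonged to sequencing lane 2, while the P6- cells came from 8 plates. Plate 6 held only 11 of the passing P6- cells, and these are given beside the pooled values. At least 1 of 6 CD4 T cell genes (Cd3d, Cd3e, Cd3g, Cd4, Cd28, Lck) had 10 reads in 100% of P6+ and 95.3% of P6- cells. Singly, these genes had 10 reads in 16 (Cd4) to 28 P6+ cells and in 39 (Cd4) to 98 (Lck) P6- cells. Cd44 had 10 reads in 11 P6+ cells (34.4%) and 30 P6- cells (23.3%). The sort had gated on both CD4 and CD44, so a gene under 10 reads in a cell is not read as absent from it. This limit holds for all counts of presence and co-expression below. In P6+ cells Cd8a, Cd8b1, Cd79a, Ms4a1, Itgam, Csf1r, Ncr1 and Klrb1c were at 0 reads, and of the CD8, B, myeloid and NK lists only Cd79b, in 2 cells, and Cst3, in 15 cells, reached 10 reads in any. In P6- cells these were Cd8b1, in 2 cells, and Cst3, in 24.

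A gene was called present in a cell at 10 or more reads. The 6 genes in 161 passing cells gave 966 values, of which 180 were 0, 399 were 1 to 9 and 387 were 10 or more. Of the latter, 359 were 100 or more and only 15 lay at 10 to 29, so presence was nearly an all-or-none reading and the exact threshold touched few values. It mattered most for Ccr7, whose share of P6- cells was 58.1% at 10 reads and 51.2% at 50. The share of P6+ cells with Ccr7 was 43.8% at both. Low readings also occurred where a gene should be silent. In the 94 cells with exactly 1 Trbv segment at 50 or more reads, 9.84% of the 1504 values of the 17 leading Trbv segments other than the cell's own were 1 to 9 reads, and 1.06% were 10 or more. Values of 1 to 9 reads are therefore not read as expression. They were a larger part of the values of the 6 genes (399 of 966) than of these Trbv values, and their source was not tested. A P6+ cell was called Trbv13-2-high at 10 or more Trbv13-2 reads and low otherwise, which split the cells 16 to 16 with a wide gap, 48 to 780 reads against 0 or 1. Of the low cells, 11 had 10 reads of another Trbv segment and 5 of none. Trbv13-2 marks a segment and not a clone, since 26 P6- cells also had 10 or more of its reads.

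**Figure D1:**
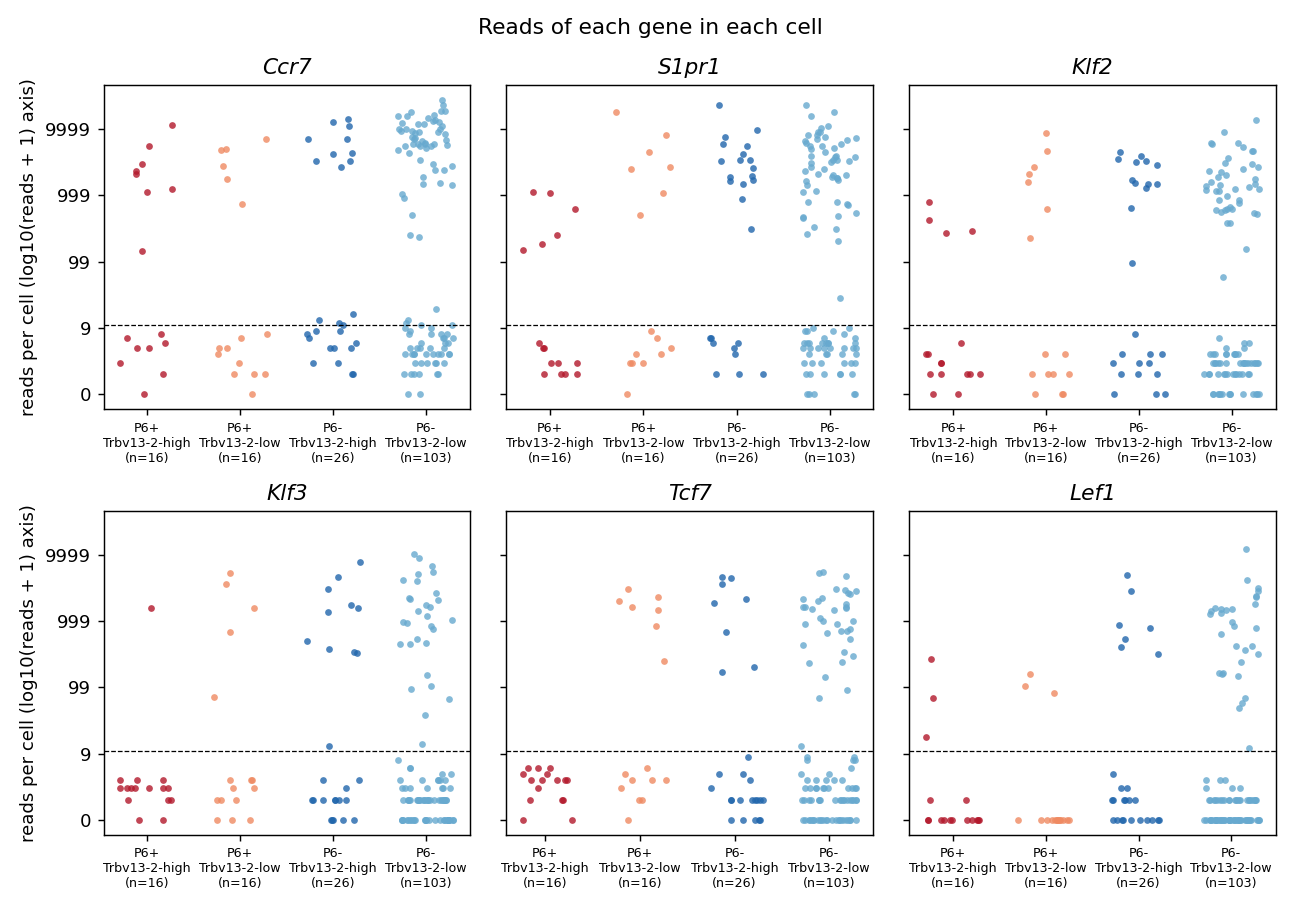
Reads of each of the 6 genes in each passing cell, on a log10(reads + 1) axis, for P6+ and P6- cells split at 10 Trbv13-2 reads. Each point is 1 cell and the dashed line marks 10 reads. Most points lie either below the line or far above it, and the 16 Trbv13-2-high P6+ cells all lie below it for Tcf7.

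Per length of exon, the pooled level of P6- cells ran from Ccr7 at 1320 cpm per kb through S1pr1 at 527, Klf2 at 350, Tcf7 at 140 and Klf3 at 38.3 to Lef1 at 30.7 cpm per kb. Length was taken as all bases annotated as exon in any transcript of a gene. P6+ cells kept the same order, with Ccr7 at 416 cpm per kb, S1pr1 at 223, Klf2 at 203, Tcf7 at 74.3, Klf3 at 19.3 and Lef1 at 1.34. Over the 8 plates of P6- cells the neighbours Ccr7 and S1pr1, S1pr1 and Klf2, and Tcf7 and Klf3 were in this order on 7 plates each, and Klf2 and Tcf7 on all 8. Klf3 and Lef1 were not told apart, since each was the higher on 4 plates. Ccr7 was the highest of the 6 genes on 7 of the 8 plates. In P6+ cells the place of S1pr1 above Klf2 rests on P6+ cell 16, which held 44% of the S1pr1 reads. Without division by length, Klf3 was above Tcf7, at 431 and 368 cpm in P6- cells and at 216 and 195 cpm in P6+ cells.

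The first comparison asked how tetramer-binding cells differed from the other antigen-experienced cells of the same lymph nodes. All 6 genes had lower pooled levels in P6+ cells. The fold of 2 was passed by Lef1, Ccr7 and S1pr1. These were 3 of 6 genes, where 29.9% of the 8728 genes with 10 cpm in either group were lower by that fold and 24.3% were higher. Log2 ratios carry a pseudocount of 1 cpm, and the median over all genes was -0.05. Intervals are exact, at 95%, and cover counting error only, since amplified reads are not independent molecules.

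Ccr7, the entry receptor, was at 823 cpm (816 to 831) in P6+ and 2612 cpm (2605 to 2619) in P6- cells, a log2 ratio of -1.66. Reads per cell ran from 0 through a median of 6.5 to 11371 in P6+ cells and from 0 through 250 to 27586 in P6- cells. The gene was present in 14 of 32 P6+ cells (43.8%, 26.4 to 62.3) and 75 P6- cells (58.1%, 49.1 to 66.8). All P6+ cells lay within the range of the P6- cells, some of which reached further, and the intervals of the shares overlapped. Among cells with Ccr7 the median level was 1702 cpm in P6+ and 4057 cpm in P6- cells, so the cells that had it also had less of it. On plate 6 alone the log2 ratio was -1.97.

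S1pr1, the exit receptor, was at 680 cpm (673 to 686) in P6+ and 1607 cpm (1601 to 1612) in P6- cells, a log2 ratio of -1.24. The median cell had 4.5 reads in P6+ and 533 in P6- cells, and the highest had 17726 and 23119. It was present in 13 of 32 P6+ cells (40.6%, 23.7 to 59.4) and 74 P6- cells (57.4%, 48.4 to 66). This difference did not hold on plate 6, where the P6- cells were at 596 cpm, the lowest of the 8 plates, and the log2 ratio was 0.19, or 0.996 without the P6- cell that held 49.1% of these reads. A single cell, P6+ cell 16, held 44% of the S1pr1 reads of P6+ cells, and without it the log2 ratio was -2.02.

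Klf2, the activator of S1pr1, was at 375 cpm (370 to 380) in P6+ and 646 cpm (642 to 649) in P6- cells, a log2 ratio of -0.78 that did not reach a fold of 2. Cells with Klf2 were 11 of 32 (34.4%, 18.6 to 53.2) and 57 P6- cells (44.2%, 35.5 to 53.2). P6+ cell 13 held 39.2% of the P6+ reads, and without it the log2 ratio was -1.43. On plate 6 the ratio was -1.18, and -0.56 without the P6- cell that held 46.5% of the reads there. Klf3 was at 216 cpm (213 to 220) and 431 cpm (428 to 434), a log2 ratio of -0.99, just short of the fold. Cells with Klf3 were 6 of 32 (18.8%, 7.21 to 36.4) and 41 P6- cells (31.8%, 23.9 to 40.6). P6+ cell 25 held 41% of the P6+ reads, and without it the log2 ratio was -1.69. Its P6- level varied the most in proportion among plates after Lef1, from 98.5 to 1029 cpm, and plate 6 was the highest, so that the ratio on plate 6 was -2.24, or -1.19 without the P6- cell that held 55.2% of the reads there.

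Tcf7 was at 195 cpm (191 to 199) in P6+ and 368 cpm (365 to 371) in P6- cells, a log2 ratio of -0.91. Cells with Tcf7 were 7 of 32 (21.9%, 9.28 to 39.97) and 45 P6- cells (34.9%, 26.7 to 43.8). Cells with Tcf7 had like levels on both sides, with a median of 907 cpm in P6+ and 981 cpm in P6- cells. On plate 6 the P6- level was 194 cpm and the log2 ratio 0.01. That level came from 3 of 11 cells, of which 1 held 54.3% of the reads, and without it the log2 ratio was 1.03.

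Lef1 stood lowest, with 11.7 cpm (10.9 to 12.7) in P6+ against 270 cpm (268 to 272) in P6- cells, a log2 ratio of -4.41. The P6+ group had 697 Lef1 reads in all and no cell above 267, whereas the highest P6- cell had 12005. Lef1 was present in 6 of 32 P6+ cells (18.8%, 7.21 to 36.4) and 38 P6- cells (29.5%, 21.8 to 38.1), shares whose intervals overlapped. The difference was mainly in the level within a cell. The median of cells with Lef1 was 51 cpm in P6+ and 547 cpm in P6- cells, and the highest P6+ cell reached 129.6 cpm. On plate 6 the log2 ratio was -5.05, or -3.77 without the P6- cell that held 63.6% of the reads there, and 7 of 8 plates of P6- cells were above the P6+ level. The exception was plate 2, at 10.9 cpm in 12 cells. By the median of cells in place of pooled reads, the log2 ratio of Lef1 was -0.64.

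**Figure D2:**
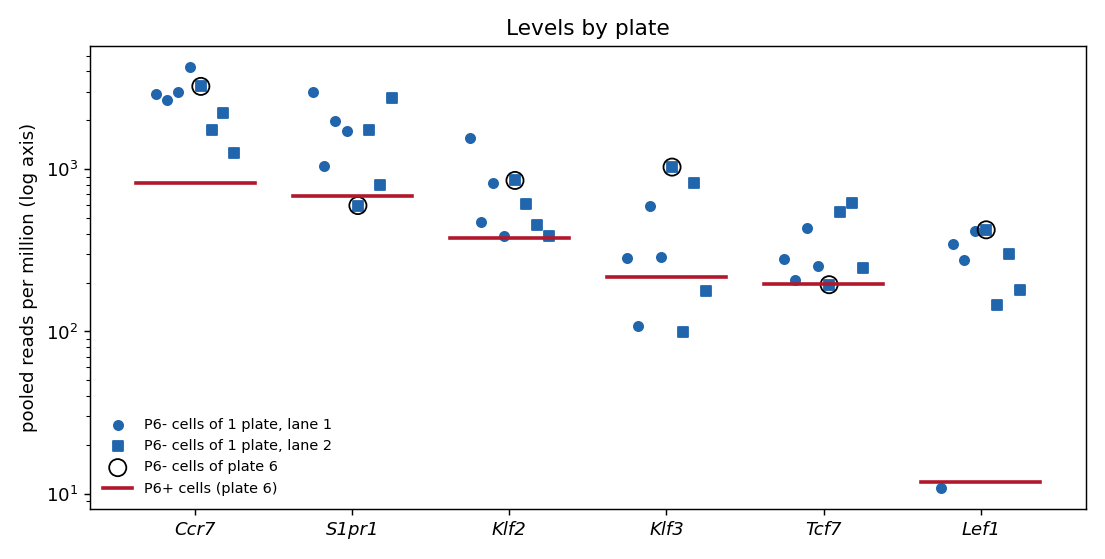
Pooled level of each gene in cpm in the P6- cells of each of the 8 plates (points, log axis; circles for lane 1, squares for lane 2, black ring for plate 6) and in the P6+ cells of plate 6 (red line). The P6+ line lies below all 8 plates for Ccr7 and Klf2, below 7 for S1pr1, Tcf7 and Lef1, and below 5 for Klf3.

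By plate, the P6+ level lay below the P6- cells of 8 of 8 plates for Ccr7 and Klf2, 7 for S1pr1, Tcf7 and Lef1, and 5 for Klf3. On plate 6 alone, 4 of the 6 genes passed the fold of 2 downwards (Ccr7, Klf2, Klf3, Lef1), where 24% of 7761 genes were lower and 50.3% higher. There the median of all genes was 1.04, against -0.05 with the P6- cells of all plates, and the cause was not tested. The plate 6 ratios of S1pr1 (0.19) and Tcf7 (0.01) lay below that median of 1.04. With the P6- cells of lane 2, 57 cells, the log2 ratios were -1.32 for Ccr7, -1.03 for S1pr1, -0.50 for Klf2, -1.38 for Klf3, -1.21 for Tcf7 and -4.36 for Lef1.

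The second comparison divided the 32 P6+ cells, which shared a plate, by their Trbv13-2 reads. Tcf7, Klf2, S1pr1 and Klf3 were at least 2-fold lower in the Trbv13-2-high cells, 4 of 6 genes, where 33.4% of 7660 genes were lower and 34.9% were higher. Folds of that size were thus common in a comparison of 16 cells with 16, and the reads of the single cells are given with each ratio. The median over all genes was 0.01. Depth was near equal, with median totals of 1700549 and 1820936 reads and medians of 4596.5 and 4222 genes.

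Tcf7 had the clearest pattern by cell. All 16 Trbv13-2-high cells had 0 to 5 reads. In the Trbv13-2-low cells the reads were 246, 829, 1468, 1610, 2001, 2325 and 3024 in 7 cells and 0 to 5 in the other 9. The low cells thus fell into a group with 10 or more Tcf7 reads and one with fewer, and the high cells were like the latter. A reading under 10 does not show that a cell lacked the transcript. The pooled levels were 1.42 cpm (1.03 to 1.92) and 396 cpm (388 to 403), a log2 ratio of -7.35. The size of that ratio rests on the 0 to 5 reads a cell, which are not read as expression, and on the pseudocount, and it was -5.15 with 10 cpm and -8.02 with 0.1 cpm. Presence in 0 of 16 cells allows a share of up to 18.8% by the limit of 3 counts (20.6% by the exact interval, which is plotted), and 7 of 16 was 43.8% (19.8 to 70.1). Only Tcf7 and Tbc1d4, which encodes a Rab GTPase-activating protein, were present in no Trbv13-2-high cell and in at least 7 low cells, 0.0742% of the 2694 genes that at least 7 of the 32 cells had. That criterion was set after the Tcf7 values were seen. In P6- cells the same division gave Tcf7 in 8 of 26 Trbv13-2-high and 37 low cells (30.8% and 35.9%), with a log2 ratio of 0.18, so Tcf7 was present in a like share of both.

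Klf2 was present in 4 Trbv13-2-high cells, with 267, 286, 416 and 777 reads, and in 7 low cells, with 226, 615, 1559, 2113, 2672, 4566 and 8730. The high cells that had it reached no more than 272 cpm, at the lower end of the low cells. The pooled levels were 58.5 and 703 cpm, a log2 ratio of -3.57, or -4.24 without P6+ cell 8 (777 reads) and -2.91 without P6+ cell 13 (8730 reads). S1pr1 showed the same form. It was present in 6 high cells, with 149, 184, 252, 619, 1090 and 1104 reads, and in 7 low cells, with 500, 1068, 2488, 2637, 4423, 8036 and 17726. The number of cells barely differed, while the reads in them did, with some overlap, and the pooled levels were 113.2 and 1267 cpm, a log2 ratio of -3.47. Without P6+ cell 16, which held the 17726 reads, it was -2.64.

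Klf3 was present in 1 high cell, with 1567 reads, and in 5 low cells, with 71, 679, 1575, 3650 and 5262. That 1 cell, P6+ cell 21, supplied 98.4% of the Klf3 reads of the high cells. The log2 ratio was -2.85, which was -7.63 without that cell and -2.06 without P6+ cell 25, which held the 5262 reads. Ccr7 showed no such fall. It was present in 8 high cells, with 145, 1121, 1250, 2121, 2287, 2929, 5518 and 11371 reads, and in 6 low cells, with 724, 1757, 2743, 4757, 5003 and 7074. The ranges overlapped throughout, and the pooled levels of 886 and 758 cpm gave a log2 ratio of 0.23, or -0.42 without P6+ cell 8, which held the 11371 reads. Lef1 had 17, 67 and 267 reads in 3 high cells and 81 to 160 in 3 low cells. Its pooled levels were 11.7 and 11.8 cpm, a log2 ratio of -0.01, or -1.66 without P6+ cell 24, which held the 267 reads, and 0.74 without P6+ cell 5, which held 160. Both parts of the P6+ cells thus had a pooled Lef1 level below that of the P6- cells.

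**Figure D3:**
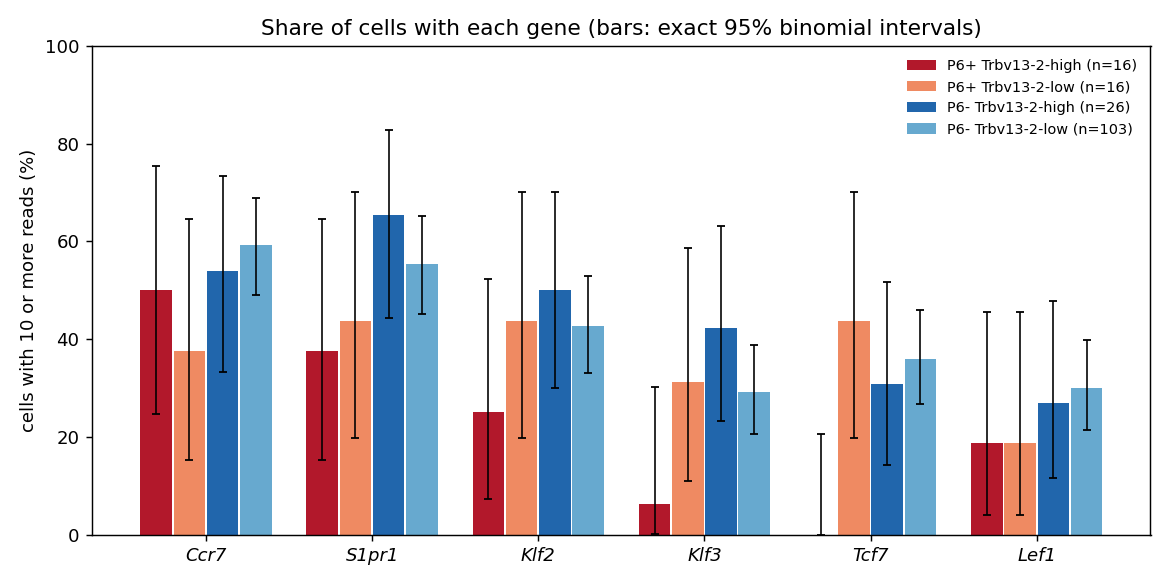
Share of cells with 10 or more reads of each gene (% of cells) in P6+ and P6- cells split at 10 Trbv13-2 reads, with exact 95% binomial intervals. Tcf7 is at 0 of 16 Trbv13-2-high P6+ cells and 43.8% of low P6+ cells, and the intervals of high and low P6+ cells overlap for all 6 genes.

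The exact intervals of the shares of cells overlapped between high and low P6+ cells for all 6 genes. In P6- cells the log2 ratio of Trbv13-2-high to low was -0.85 for Ccr7, 0.21 for S1pr1, 0.08 for Klf2, 0.27 for Klf3 and -0.19 for Lef1. None of the 6 genes passed the fold of 2 there, where 37.3% of 8328 genes were lower and 23.1% higher and the median was -0.31.

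Co-expression was counted as the number of the 6 genes present in a cell. Of the P6+ cells, 5 had none, 10 had 1, 12 had 2, 1 had 3, 1 had 4, 2 had 5 and 1 had all 6. Of the P6- cells, 10 had none, 25 had 1, 29 had 2, 29 had 3, 23 had 4, 10 had 5 and 3 had all 6. Cells with 3 or more were 5 of 32 P6+ (15.6%, 5.28 to 32.8) and 65 P6- cells (50.4%, 41.5 to 59.3). Among the P6- cells of plate 6 they were 5 of 11 (45.5%, 16.7 to 76.6), an interval that overlapped with that of P6+ cells.

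Among the Trbv13-2-high P6+ cells no cell had more than 2 of the genes. There 2 cells had none, 6 had 1 and 8 had 2, and the pairs were Ccr7 with S1pr1 in 3 cells, and in 1 cell each Ccr7 with Klf2, Ccr7 with Lef1, S1pr1 with Klf2, S1pr1 with Klf3 and S1pr1 with Lef1. All 5 P6+ cells with 3 or more were Trbv13-2-low (31.2% of 16, 11 to 58.7). In 4 of them S1pr1, Klf2, Klf3 and Tcf7 occurred together, with Ccr7 in 1, Lef1 in 1 and both in 1. These 4 cells were also 4 of the 6 P6+ cells with Klf3 and 4 of the 7 with Tcf7. In P6- cells 3 or more genes were found in 15 of 26 Trbv13-2-high cells (57.7%) and 50 low cells (48.5%).

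**Figure D4:**
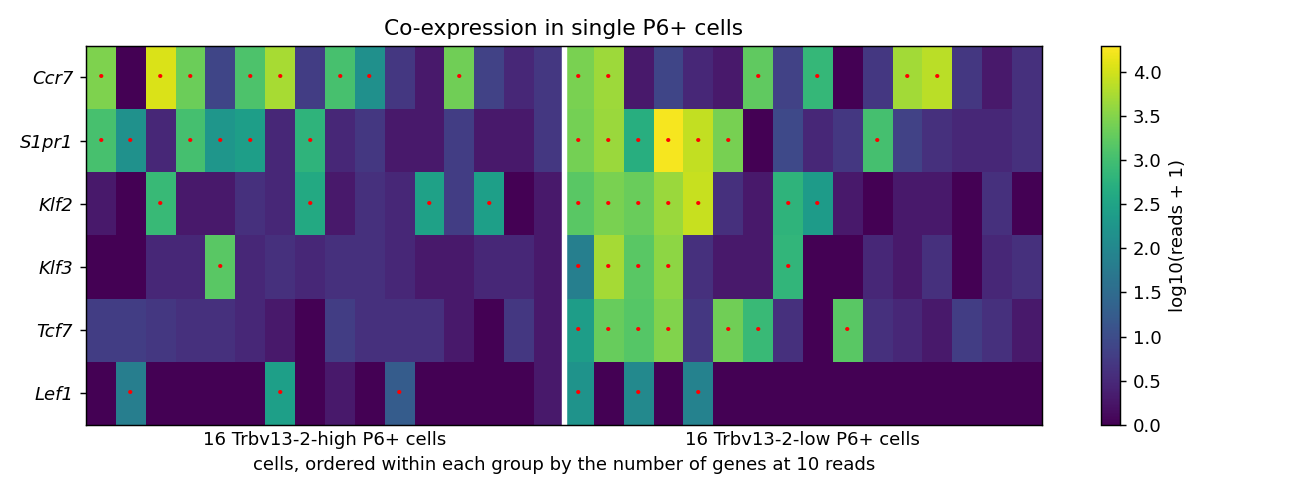
Reads of the 6 genes (rows, colour as log10(reads + 1)) in each of the 32 P6+ cells (columns), Trbv13-2-high at left and low at right, ordered by the number of genes at 10 reads. Red dots mark 10 or more reads. The columns with 3 or more dots are 5 cells, all on the right side of the map.

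**Figure D5:**
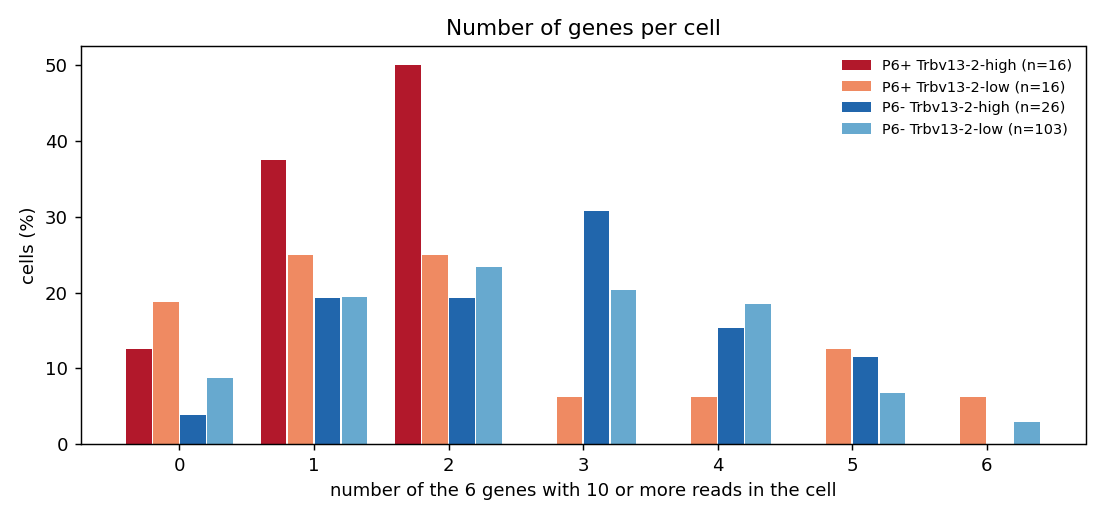
Share of cells (%) by how many of the 6 genes had 10 or more reads, for P6+ and P6- cells split at 10 Trbv13-2 reads. The 16 Trbv13-2-high P6+ cells stop at 2 genes, while each of the other 3 groups reaches 5 or 6.

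Pairs of genes were counted in the same way. Ccr7 and S1pr1, the entry and exit receptors, were both present in 48 P6- cells, and S1pr1 was found in 64% of cells with Ccr7 and 48.1% of cells without. In P6+ cells they were both present in 5 of 32, and S1pr1 was found in 35.7% of cells with Ccr7 and 44.4% of cells without. S1pr1 with its activator Klf2 occurred in 6 P6+ and 38 P6- cells. Klf3 and Tcf7 occurred together in 4 P6+ cells, so that 66.7% of the P6+ cells with Klf3 and 11.5% of those without it had Tcf7. In P6- cells these shares were 41.5% and 31.8%. Over all 161 cells, which share depth as a source of variation, Spearman's rho of log2(cpm + 1) between pairs of the 6 genes ran from -0.05 for Ccr7 and Tcf7 to 0.27 for Ccr7 and Klf2. All were weak and are no finding.

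What else the 7 P6+ cells with Tcf7 held was examined with Foxp3, the factor of regulatory T cells, Bcl6, the factor of follicular helper cells, and Il7r, the survival cytokine receptor of naive and memory cells. Bcl6 was present in 5 of the 7, with 60, 98, 577, 772 and 2547 reads, and in 4% of the other 25 P6+ cells. Foxp3 had 0 or 1 read in all 7, and was present in 44% of the others. Il7r had 0 to 4 reads in all 7, and was present in 52% of the others. All 7 were Trbv13-2-low, while the others included all 16 Trbv13-2-high cells. Among the low cells alone, those with Tcf7 and the 9 without it gave 5 and 1 with Bcl6, 0 and 2 with Foxp3, and 0 and 2 with Il7r. In P6- cells Foxp3 was present in 1 of the 45 cells with Tcf7 (2.22%) and in 21.4% of those without, and Bcl6 in 15.6% and 5.95%. Il7r was present there in 26.7% and 26.2%. These partner genes were looked at after earlier results of these cells were known, and the differences between groups were not tested.

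The same partners divided by Trbv13-2. Foxp3 was present in 9 of 16 Trbv13-2-high P6+ cells (56.2%, 29.9 to 80.2) and 2 of 16 low cells (12.5%, 1.55 to 38.3). Bcl6 was present in 0 high cells and 6 low cells (37.5%, 15.2 to 64.6).

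Other genes of the naive program lay on both sides. The shares of all genes past the fold, beside which each list is read, were 29.9% lower and 24.3% higher for P6+ against P6- cells, 24% and 50.3% against the P6- cells of plate 6 (where the median of all genes was 1.04) and 33.4% and 34.9% for the Trbv13-2 division of P6+ cells. In P6+ against P6- cells 7 of 12 (Il7r, Foxo1, Foxp1, Satb1, Bach2, Ets1, Id3, Dapl1, Igfbp4, Nsg2, Actn1, Txk) were at least 2-fold lower, 1 was higher and 4 were within the fold, with a median log2 ratio of -1.63. On plate 6, 4 of 9 were lower and 2 higher, with a median of -0.997. On the scale with the pseudocount the lowest were Igfbp4, with 1 read in all P6+ cells and 62.7 cpm in P6- cells, and Txk, a Tec family kinase, at 4.84 and 133.7 cpm (log2 ratio -4.53). The ratio of Igfbp4 without pseudocount was -11.9 on the log2 scale (-17.2 to -9.38), yet only 6 P6- cells had it. Dapl1, with 2 reads in P6+ cells and 18.9 cpm in P6- cells, was at -9.13 (-12.2 to -7.28) without pseudocount. Neither difference was seen on plate 6, where Igfbp4 and Dapl1 had no read in P6- cells. Id3, Nsg2, Gpr183, Slamf6, Ikzf4, Prdm1, Zeb2 and Klrg1, named here and below, were also present in none of the 11 P6- cells of plate 6. The highest were Nsg2 at 60.6 and 19.2 cpm (1.61, present in 2 and 4 cells) and Id3, a DNA-binding inhibitor, at 72.2 and 63.4 cpm (0.18).

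Between Trbv13-2-high and low P6+ cells, 4 of the 9 genes of this list that had 10 cpm were lower, 2 higher and 3 within the fold, with a median of -0.97. The highest was Foxp1, a factor of T cell quiescence, at 118.6 and 16.4 cpm (2.78, 9 and 3 cells). Next came Il7r, at 214 and 51.99 cpm (2.02), present in 11 of 16 high cells (68.8%, 41.3 to 88.98) and 2 of 16 low cells (12.5%, 1.55 to 38.3). The lowest were Id3, with 3 reads in all high cells against 147 cpm (log2 ratio without pseudocount -10.5, -12.8 to -8.98), and Nsg2, with 2 reads against 123.4 cpm (-10.9, -13.9 to -9.01). Both were present in only 2 low cells. Actn1 had no read in the high cells and 38.4 cpm in the low cells, which was at least 387-fold lower at 3 counts over the group and leaves the list's median as it was. Actn1 too was present in only 2 low cells. Foxo1, which acts upstream of Klf2 and Il7r, was at 234 and 168 cpm (0.47) and present in 5 cells of each. In P6- cells the same division gave log2 ratios of 1.69 for Il7r (854 and 265 cpm), -5.34 for Id3 (1 and 6 cells) and -4.51 for Nsg2 (0 and 4 cells). Foxp1, at -0.89, and Actn1, at 1.62, went the other way there than in P6+ cells, and Foxo1 was at 0.04.

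Of the egress and homing genes, 7 had 10 cpm. In P6+ against P6- cells 1 was lower, 3 were higher and 3 were within the fold, with a median of 0.55. On plate 6, 6 of 7 were higher and 0 lower, with a median of 3.39. Over all plates the lowest were Cd69, which removes S1PR1 from the cell surface, at 229 and 658 cpm (-1.52, but 0.37 on plate 6), and Gpr183, a guidance receptor for oxysterols, at 123.6 and 88.9 cpm (0.47). The highest were the integrin chain Itgb7 at 1843 and 701 cpm (1.39) and the chemokine receptor Cxcr4 at 22.5 and 9.77 cpm (1.12). Within P6+ cells 2 were lower in the Trbv13-2-high cells, 2 higher and 3 within, with a median of -0.47. Cxcr4 was at 2.09 and 43.6 cpm (-3.85) and Gpr183 at 48.5 and 201 cpm (-2.03). Cd69 was at 392 and 60.6 cpm (2.67), present in 6 and 1 cells, and Itgb7 at 2602 and 1057 cpm (1.30), present in 16 and 7 cells. By cell, Cd69 was present in 23.1% of P6+ cells with S1pr1 and 21.1% of those without, and in 18.9% and 21.8% of P6- cells.

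Of 10 other KLF and TCF family genes and partners, 8 had 10 cpm in P6+ against P6- cells, of which 3 were lower, 1 higher and 4 within the fold, with a median of -0.24. On plate 6, 2 of 7 were lower and 3 higher, with a median of 0.93. Tle4, a corepressor, had no read in P6+ cells and 40.3 cpm in P6- cells, which was at least 798-fold lower at 3 counts over the group and did not change that median. It was present in 9 P6- cells. Klf4 was at 0.0674 and 18.2 cpm (-4.17, 0 and 5 cells). The highest were Tle3, also a corepressor, at 127.1 and 42.8 cpm (1.55) and Klf10 at 53.7 and 30.1 cpm (0.81). Within P6+ cells 1 of 6 was lower in the Trbv13-2-high cells, 1 higher and 4 within, with a median of 0.12. Klf6 was at 526 and 1203 cpm (-1.19) and Klf13 at 576 and 824 cpm (-0.52). Klf7 was at 152 and 3.23 cpm (5.18, 3 and 1 cells) and Ctnnb1, which encodes beta-catenin, at 43.96 and 24.8 cpm (0.80).

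Follicular helper genes, of which 5 of 6 had 10 cpm, were 1 lower, 0 higher and 4 within the fold in P6+ against P6- cells, with a median of -0.26. On plate 6, 1 of 5 was lower and 1 higher, with a median of 0.20. Pdcd1 was at 111.5 and 336 cpm (-1.58) and Slamf6 at 185 and 312 cpm (-0.75), while Bcl6 was at 85.6 and 56.4 cpm (0.59) and Cxcr5 at 102.3 and 74.4 cpm (0.45). On plate 6 Bcl6 turned to -0.54. Slamf6 was at 6.43 there, where no P6- cell had 10 reads of it. Within P6+ cells 4 of the 5 were lower in the Trbv13-2-high cells and 0 higher, with a median of -2.87, where 33.4% of all genes were lower. Bcl6 was at 0.563 and 174 cpm (-6.81) and Cxcr5 at 16.6 and 191 cpm (-3.45, 1 and 2 cells), and the highest were Pdcd1 at 88.6 and 135.3 cpm (-0.60) and Sh2d1a at 80.1 and 177 cpm (-1.13).

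Regulatory genes, all 7 with 10 cpm, were 3 higher and 4 within the fold in P6+ against P6- cells, with a median of 0.86. On plate 6, 5 of 7 were higher and 0 lower, with a median of 1.46. Ikzf4 was at 509 and 100.6 cpm (2.33) and Tnfrsf9 at 938 and 267 cpm (1.81), and the lowest were Ctla4 (0.64) and Foxp3 (0.66, but -0.17 on plate 6). In the Trbv13-2-high cells 3 were higher and 4 within, with a median of 0.93, where 34.9% of all genes were higher. Foxp3 was at 451 and 95.5 cpm (2.23) and Il2ra at 319 and 68.8 cpm (2.19), and the lowest were Tnfrsf9 (0.12) and Ctla4 (0.61). Effector and memory genes, of which 11 of 12 had 10 cpm, were 8 higher and 3 within in P6+ against P6- cells (24.3% of all genes were higher), with a median of 1.94. On plate 6, 9 of 11 were higher and 0 lower, with a median of 3.57. Zeb2 was at 48.3 and 0.716 cpm (4.84, 2 and 1 cells) and Klrg1 at 1259 and 106.04 cpm (3.56), and the lowest were Prdm1 (-0.69) and Id2 (0.62). On plate 6 Id2 turned to -0.55. Prdm1 was at 3.57 there, where 3 P6+ cells and no P6- cell had 10 reads of it. In the Trbv13-2-high cells 6 were higher, 1 was lower and 4 within, with a median of 1.22, where 34.9% of all genes were higher. Prdm1, which encodes BLIMP1, was at 27.2 and 0.172 cpm (4.59, 3 and 0 cells) and Zeb2 at 86.1 and 9.09 cpm (3.11, 1 cell each), and the lowest were Cxcr3 at 243 and 1076 cpm (-2.14) and Nkg7 (-0.19). The myeloid list moved with this split through Cst3 alone, present in 11 high and 4 low cells at a summed level of 321 and 129.4 cpm, with Itgam and Csf1r at 0 in both. Its part in the values above was not tested.

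The genes most alike to each member over the 161 passing cells, by Spearman's rho of log2(cpm + 1) among 3293 genes, were few and weakly related. They were Smc4 (0.37), Dusp10 (0.36) and Foxp1 (0.35) for Ccr7, and Grap2 (0.29), Evl (0.27) and Klf6 (0.27) for S1pr1. For Klf2 they were Rgs10 (0.32), Klf6 (0.31) and Ccr7 (0.27), and for Klf3 Dgka (0.32), Cd164 (0.32) and Ifngr1 (0.31). Rbm5 (0.33), Gfus (0.32) and Tgfbr2 (0.30) were nearest to Tcf7, and Pik3ip1 (0.32), Dusp10 (0.29) and Smc4 (0.27) to Lef1. At such values no likeness is claimed.

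When each cell was thinned to 522192 reads, the lowest total of a passing cell before rows of the same name were averaged, the number of P6+ cells with each gene was the same for 5 of the genes and went from 6 to 5 for Lef1. In P6- cells the largest change was for Ccr7, from 75 to 66 cells. Tcf7 remained at 0 of 16 Trbv13-2-high and 7 of 16 low P6+ cells.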

How the data were processed

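The authors sequenced single cells on a NovaSeq as paired reads, checked them with FastQC 0.11.7, aligned them with STAR 2.6.0a to GRCm38 with Ensembl annotation, sorted them with SAMtools 0.1.19 and deposited the raw counts of reads per gene, neither normalized nor filtered, together with a list that gives each cell's tetramer result. The count table gave gene names, and the 81 names listed more than once were averaged here. The strand setting is not given in the sources used here, so reads of a gene and of an antisense partner may not be told apart.

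Cells were kept at 500000 reads, 2000 genes and under 10% mitochondrial reads, which all 32 P6+ and 129 of 144 P6- cells passed. The authors' limit on mapping rate was not applied, and more P6- cells are used here than the authors kept. Counts were summed over a group, divided by its total and given as cpm, and log2 ratios used a pseudocount of 1 cpm. A gene was compared where either group had 10 cpm, and a ratio of 2-fold was called. Intervals are exact Poisson and exact binomial at 95%, and a count of 0 allows 3 counts. No test was made, since all cells were of 1 mouse. Pooling was tested on simulated data in which all cells of a group had the same mean for a gene, scaled to depth. The direction was right for 100% of the 200 changed genes. Variation between cells beyond counting error was not simulated, so ratios carried by single cells were not tested. TMM factors of edgeR 4.0.16 and size factors of DESeq2 1.42.0 were alternatives on the sums only. Alternatives also changed the cells, the read threshold, the pseudocount, the fold and the way cells were averaged, and left out each P6+ cell or each plate of P6- cells in turn. Python 3.11.15, numpy 2.4.6, pandas 2.3.3, scipy 1.17.1 and R 4.3.3 were used.

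The 6 genes and the gene lists were chosen with earlier results of these data known. Named were every one of the 6 genes, the 2 highest and 2 lowest log2 ratios of each list and, for each of the 6, the 3 genes of highest Spearman's rho, without receptor segments, predicted genes, unnamed genomic clones, pseudogenes, mitochondrial and ribosomal protein genes. Foxo1, Actn1, Dapl1, Cst3 and Tbc1d4, plate 6 values beside named genes, and the joint counts with Foxp3, Bcl6 and Il7r, were chosen after values were seen. Promoter windows came from RefSeq (GRCm38.p6) and gene positions from GENCODE. 1 further gene first set for the naive list was left out of it and is not reported here.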

Additional observations from a re-analysis of the deposited data

How the results depend on the processing

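No paired analysis was possible because all values come from cells of 1 mouse and from no test. Of the 6 genes, 3 were at least 2-fold lower in P6+ than in P6- cells, where 29.9% of all genes tested were. The number was 6 with the mean of the cells' cpm in place of pooled reads (28.3% of all genes), 6 with cells thinned to equal reads (28.4%), 6 at a fold of 1.5 (37.4%), 2 with the median of cells (4.86% of the 720 genes that reached 10 cpm, Lef1 being at a log2 ratio of -0.64), 1 at a fold of 4 (19.3%) and 5 with the P6- cells of lane 2 (28.2%), an alternative chosen after seeing the data. It ran from 3 to 6 when 1 P6+ cell or 1 plate of P6- cells was left out. It was 6 without P6+ cell 16 (30.1% of all genes), and 5 without P6+ cell 10, P6+ cell 25 or the P6- cells of plate 3. Klf2, Klf3 and Tcf7 lay close to the limit, and Ccr7, S1pr1 and Lef1 stayed beyond it in all of these left-out settings. With only cells of 3000 genes or more the number was 4. There S1pr1, at a log2 ratio of -0.96, was no longer 2-fold lower, while Klf3 (-1.15) and Tcf7 (-1.07) were. Against the P6- cells of plate 6 alone, the direction of S1pr1 turned, to a log2 ratio of 0.19. With each P6- cell of that plate left out in turn, also chosen after seeing the data, Klf2 was no longer 2-fold lower in 2 of 11 cases, Tcf7 reached a log2 ratio of 1.03 without its leading cell, and the calls of lower did not change for the other genes. Of the 6 genes, 4 were lower in Trbv13-2-high than in low P6+ cells. The number was 0 with the median of cells, which was under 10 reads in both groups for these genes because each was present in at most 7 of 16 cells. It ran from 4 to 5 with 1 cell left out and was 4 under each other alternative run. The number of P6+ cells with 3 or more of the genes was 5, and 32 at a threshold of 1 read, which counts the readings of 1 to 9 described above. It was 5 at 50 reads, at 10 cpm and after thinning. The same count in P6- cells is given at 10 reads only. The cause of the other shifts was not tested. With 1 mouse and 16 cells a group, shares of cells carry wide intervals.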
